A study of Mus musculus with 15 samples.

Results

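Rab GTPases are small switch proteins that direct membrane traffic, and 51 of their genes were measured here on Illumina mouse bead arrays in 3 neutrophil populations that the labels define as Ly6G+. A gene entered the set when its annotated symbol was Rab followed by a number and at most a single letter. Genes named for proteins that only bind Rabs or act on them were left out, among them Rab11fip2, Rab3gap1 and Rab3il1 (7 such symbols). The 51 genes had 73 probes among the 16322 probes of the deposited value table, and all 73 probes were tested. They stood beside 11075 genes in all. Of the 51 genes, 35 lay above background in every array and 4 lay below background in every array of at least a single group.

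A Rab protein carries a lipid tail that anchors it in a membrane. With GTP bound it recruits effectors such as tethers and motors, and with GDP bound it is drawn off the membrane by a GDP dissociation inhibitor. Exchange factors switch it on and GTPase-activating proteins switch it off. Each organelle holds its own Rabs, so that Rab5 marks early endosomes and young phagosomes, Rab7 marks late endosomes and maturing phagosomes, and Rab27a and Rab3d sit on secretory granules. Neutrophils rely on this traffic to fuse granules with phagosomes that hold microbes and to release granule contents at the cell surface.

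All mice were BALB/c. Naïve neutrophils (NN, 7 arrays) came from the bone marrow of mice without a tumor. Granulocytic myeloid derived suppressor cells (G-MDSC, 4 arrays) came from the spleens of mice with flank tumors of AB12, a mesothelioma cell line, about 21 to 25 days after the cells were injected. Tumor associated neutrophils (TAN, 4 arrays) came from smaller AB12 flank tumors, about 12 to 15 days after injection. Each sample held RNA from a pool of 2 to 4 mice, and the samples were prepared independently. By the study's methods marrow was flushed and run over a Percoll gradient, while spleens and tumors were digested and sorted for Ly6G after CD11b beads, whereas the labels give beads and sorting for all samples. Tissue, time after injection and preparation thus differ together with the population and cannot be told apart. A single tumor line was used, and the age of the mice is not given in the sources used here.

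Some properties of the arrays bear on every result below. Values are log2 signals after background correction and quantile normalization, and each gene is represented by the brightest of its probes unless stated otherwise. The median background signal was 105 to 114 in NN 6, NN 7 and all G-MDSC, and 76.2 to 94.3 in NN 1 to NN 5 and all TAN, so that no background level holds both G-MDSC and TAN. A fit with the background level as a block takes the level effect only from NN 6 and NN 7 against NN 1 to NN 5. In that fit TAN against G-MDSC rests on these NN arrays and has less precision by design. TAN 3 stood apart from the other TAN (correlations of 0.893 to 0.930 over all probes, against 0.982 to 0.995 among the other TAN), and G-MDSC 1 stood apart from the other G-MDSC (0.955 to 0.967 against 0.992 to 0.996). The mean of 12 neutrophil markers was at least 14.93 in every NN, at most 14.39 in any G-MDSC and at most 12.81 in any TAN. The mean of 15 macrophage markers was at most 9.22 in any NN and 8.92 in any G-MDSC, and it was 10.57 to 11.96 in TAN, and 12 of the 15 were higher in TAN than in NN. The mean of 10 tumor and stroma markers was 6.45 to 6.80 in NN and 7.78 to 8.15 in TAN, with Msln, Krt19 and Col3a1 below background in every NN. Of these 10, 8 were higher and 1 lower in TAN than in NN, and Upk3b was below background in every TAN. The mean of 9 erythroid markers was 10.93 to 11.58 in NN against at most 7.12 elsewhere, and that of 9 platelet markers was 10.07 to 11.10 against at most 7.60. B cell markers had a mean of 10.19 and T and NK cell markers a mean of 9.28 in G-MDSC 1, against at most 9.03 and 7.68 in NN. Ly6g itself had no probe that was tested. The part of these other cells in the results below was not tested, and fewer cells of a type cannot be told apart from less RNA per cell.

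The Rab genes split in TAN rather than moving together. Rab15 and Rab3d moved furthest, in opposite directions. Rab15, which acts in recycling from early endosomes, was 10.9-fold higher in TAN than in NN, and Rab3d, a Rab of secretory granules, was 12.5-fold lower. In TAN against NN, 33 of 51 Rab genes were called at an adjusted p under 0.05, or 64.7%, where 63.0% of all genes tested were called. Of these, 12 were higher (23.5%, against 36.8% of all genes) and 21 were lower (41.2%, against 26.2%). The difference was at least 2-fold for 14 of them, or 27.5%, against 28.3% of all genes. The arrays of the groups did not overlap for 24 called Rab genes, or 47.1%, against 44.1%. The median log2 difference was -0.102 over the Rab genes and 0.117 over all genes, and the median absolute difference was 0.439 and 0.504.

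Between G-MDSC and NN fewer Rab genes differed. Here 15 of 51 were called, or 29.4%, against 38.0% of all genes, with 6 higher (11.8%, against 18.3%) and 9 lower (17.6%, against 19.7%). The split changed with the scaling, since 10 were higher and 7 lower when each array was scaled to its median. Only 4 of the 15 differed by at least 2-fold (7.84%, against 12.3%), and these were Rab3d, Rab15, Rab2a and Rab28, all lower. Groups did not overlap for 11 called genes (21.6%, against 30.2%). The count rose when the 2 arrays that stood apart were left out. Without TAN 3 and G-MDSC 1, 23 Rab genes were called, 13 higher and 10 lower. TAN 3 enters this comparison only through the spread that the model shares over the groups. With the background level as a block in the model 10 were called, 3 higher and 7 lower, and with array weights 31 were called, 17 higher and 14 lower. Shares of all genes called under these other settings are not given here, so the shifts cannot be read as particular to Rab genes.

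TAN and G-MDSC differed in 31 of 51 Rab genes, or 60.8%, against 59.0% of all genes. Of these, 11 were higher in TAN (21.6%, against 36.4%) and 20 lower (39.2%, against 22.6%), 11 by at least 2-fold (21.6%, against 23.2%), and groups did not overlap for 24 (47.1%, against 42.7%). The median log2 difference was -0.210 over the Rab genes and 0.130 over all genes, and that over all genes became 0.022 with median scaling. With the background level as a block, 16 Rab genes were called, and the share of all genes called in that fit is not given here. The comparisons of TAN with NN and with G-MDSC share the TAN arrays, and those of G-MDSC and TAN with NN share the NN arrays. Over the 3 comparisons, 11 Rab genes were lower in TAN than in each of the other groups and not called between G-MDSC and NN (21.6%, against 10.8% of all genes). Another 7 were higher in TAN than in each and not called between G-MDSC and NN (13.7%, against 19% of all genes), and 11 were called in none (21.6%, against 22.2%). These shares are descriptions and were not tested.

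**Figure D1:**
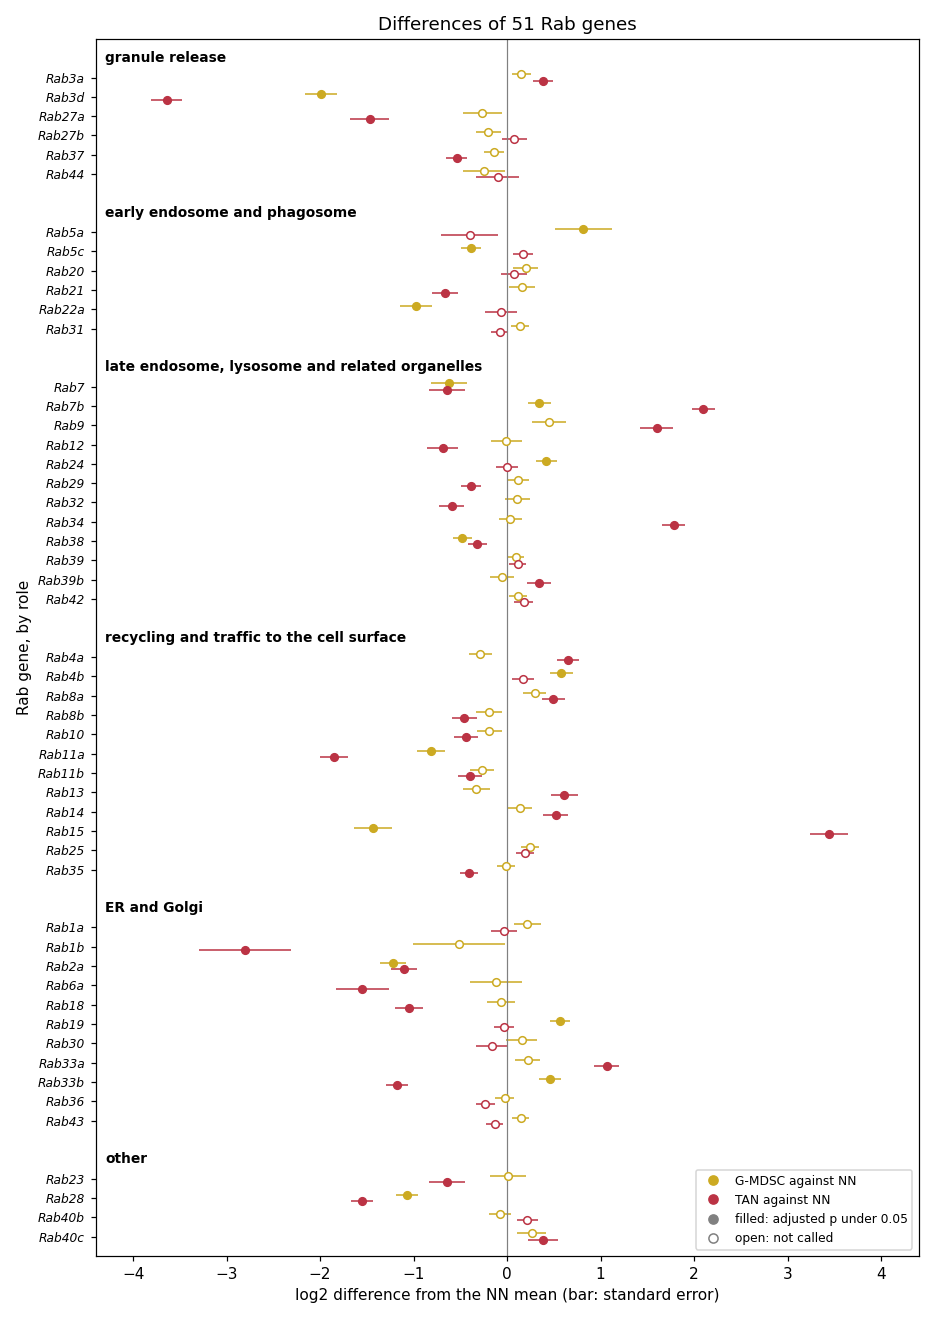
Log2 difference of each of the 51 Rab genes from the NN mean, for G-MDSC (yellow, n = 4) and TAN (red, n = 4) against NN (n = 7), with genes grouped by role and bars showing the standard error. Filled points were called at an adjusted p under 0.05, and the ends of the scale are held by Rab3d at -3.64 and Rab15 at 3.45, both in TAN.

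Of 6 genes of granule release, 3 were lower in TAN than in NN (Rab3d, Rab27a and Rab37) and 1 was higher (Rab3a). This is 50% and 16.7%, where 26.2% of all genes were lower and 36.8% higher. Between G-MDSC and NN, Rab3d alone was called among the 6, and it was lower, as were 19.7% of all genes. The counts in each role are small and describe the role only. Rab3d sits on secretory granules and is needed for their normal size in mouse exocrine glands. Its log2 signal in NN had a lowest value of 13.23, a median of 13.56 and a highest of 13.80. G-MDSC 1 to 4 had 11.27, 11.84, 11.49 and 11.69, and TAN 1 to 4 had 10.25, 10.21, 9.32 and 9.88. All 3 groups were thus apart, with NN highest and TAN lowest, and TAN 3 was the lowest array. From NN, Rab3d fell by 1.99 in G-MDSC (SE 0.17, limma adjusted p = 1.46e-07) and fell by 3.64 in TAN (SE 0.17, adjusted p = 4.65e-11), and TAN differed by -1.65 from G-MDSC (SE 0.19, adjusted p = 3.77e-06).

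Rab27a, which is needed for exocytosis of primary granules in neutrophils, had NN values of 13.25 lowest, 13.64 median and 13.69 highest. It was 13.17, 13.37, 13.26 and 13.26 in G-MDSC 1 to 4 and 12.69, 12.43, 11.17 and 11.95 in TAN 1 to 4. Every TAN was below every other array, while G-MDSC overlapped with NN. Rab27a fell by 1.47 from NN to TAN (SE 0.21, adjusted p = 1.63e-05) and differed by -1.2 from G-MDSC (SE 0.24, adjusted p = 0.000489), whereas its difference between G-MDSC and NN was -0.27 (SE 0.21, adjusted p = 0.349). Rab37, a Rab of mast cell granules, had a mean of 7.09 ± 0.15 in NN (SD over 7 arrays) and of 6.95 ± 0.18 in G-MDSC and 6.55 ± 0.17 in TAN (SD over 4 arrays each), and 3 of the 4 TAN were above background. It fell by 0.54 from NN to TAN (SE 0.11, adjusted p = 0.000426) and the groups did not overlap.

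Rab3a, best known from synaptic vesicles, rose by 0.38 from NN to TAN (SE 0.11, adjusted p = 0.00480). That rise rested on TAN 1, TAN 2 and TAN 4 at 7.54 to 7.60, while TAN 3 at 7.06 lay inside the NN range of 6.84 to 7.17. With median scaling the difference was 0.18 and was not called, and without TAN 3 the difference of Rab3a between TAN and G-MDSC was called as well (0.36, adjusted p = 0.00455). Rab44, a large Rab found in mast cell granules of mice, had 10.38 ± 0.29 as its NN mean (SD, n = 7), 10.14 ± 0.49 for G-MDSC and 10.28 ± 0.46 for TAN (SD, n = 4 each), and no comparison was called. Rab27b, the close relative of Rab27a, had means of 6.47, 6.27 and 6.55 near the background and no call by its brightest probe, while its other probe was above background in 2 of 7 NN and in no G-MDSC or TAN, so that no size can be given for its called falls in G-MDSC (adjusted p = 0.00191) and TAN (adjusted p = 0.000341).

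**Figure D2:**
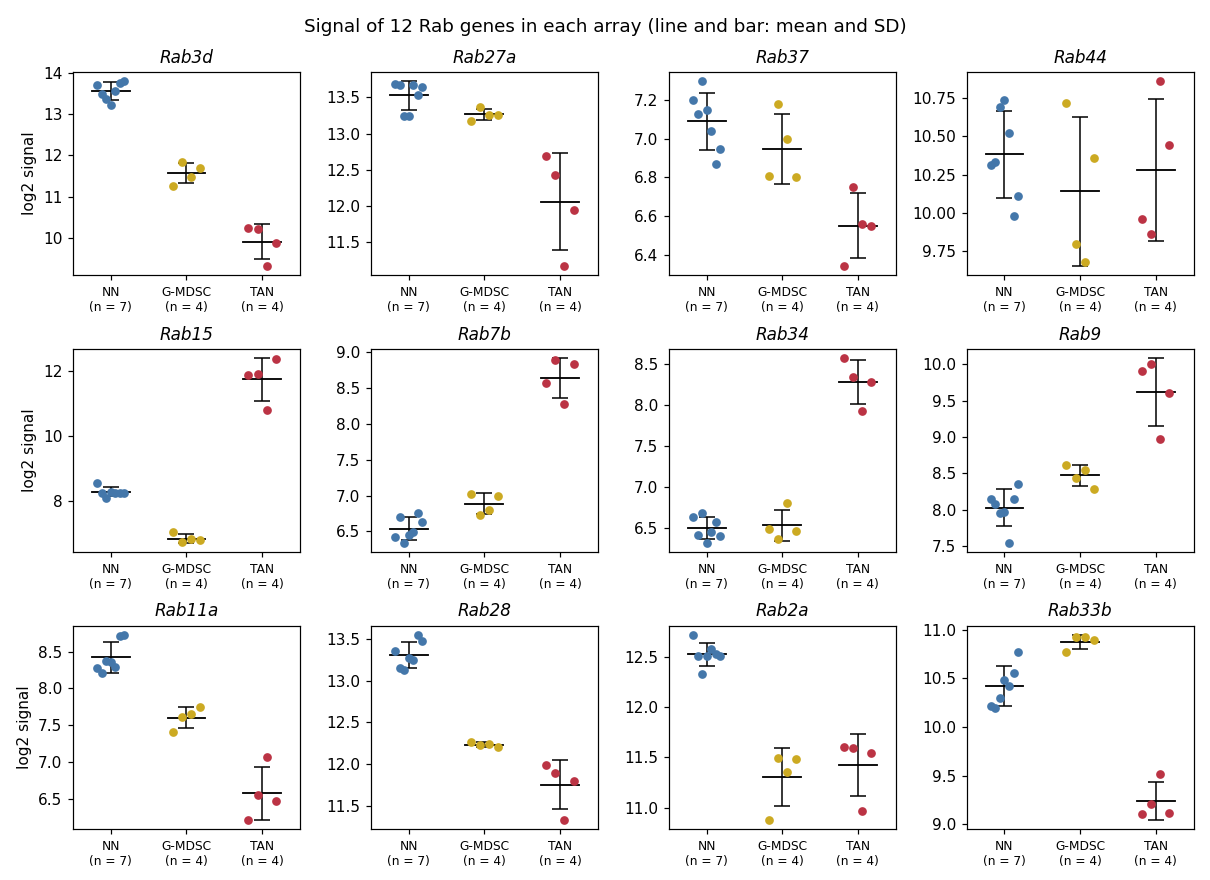
Log2 signal of 12 Rab genes by group, where each point is an array, the line is the group mean and the bar is the SD. Rab3d runs from 13.80 in NN down to 9.32 in TAN without overlap between groups, while Rab15 lies at 10.80 or more in TAN and at 8.56 or less elsewhere.

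RefSeq's promoter window of Rab3d, from 250 bases before to 50 after a start (GRCm38.p6, chr9:21918134-21918433, minus strand), is shown because this gene had the lowest difference of all Rab genes in TAN. That start lies just inside the gene, which spans chr9:21907491-21918199, and is not its outermost start. The window was searched on both strands for 4 motifs, the E-box CACGTG, the AP-1 site TGACTCA, the C/EBP palindrome TTGCGCAA and the PU.1 site GAGGAAGT, which do not overlap each other here. None of these letters was found in it, and 71.0% of its bases were G or C.
Rab3d: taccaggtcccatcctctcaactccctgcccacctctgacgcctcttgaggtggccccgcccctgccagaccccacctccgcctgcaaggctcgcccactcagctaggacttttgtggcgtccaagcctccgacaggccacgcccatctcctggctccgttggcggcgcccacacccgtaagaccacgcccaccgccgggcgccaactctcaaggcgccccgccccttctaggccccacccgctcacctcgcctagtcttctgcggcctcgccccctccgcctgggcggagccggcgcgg

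Rabs of the early endosome and phagosome showed no common direction. Of 6 genes, Rab21 alone was called between TAN and NN, and it was lower (16.7%, against 26.2% of all genes). Between G-MDSC and NN, Rab5a was higher (16.7%, against 18.3%) and Rab5c and Rab22a were lower (33.3%, against 19.7%). Rab5a and Rab5c drive fusion of early endosomes and mark young phagosomes. Rab5c stood at 13.50 ± 0.19 on average for NN (SD, n = 7), 13.11 ± 0.10 for G-MDSC and 13.67 ± 0.14 for TAN (SD, n = 4 each). It fell by 0.39 from NN to G-MDSC (SE 0.11, adjusted p = 0.00904), and TAN lay 0.55 above G-MDSC (SE 0.12, adjusted p = 0.00104). The difference of Rab5c between G-MDSC and NN was 0.01 with median scaling (adjusted p = 0.964) and -0.16 when only arrays of high background were fitted, neither called.

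Rab5a had 8.77, 9.11 and 10.22 as its lowest, median and highest values in NN. In G-MDSC 1 to 4 it was 9.23, 10.55, 10.75 and 10.03, and in TAN 1 to 4 it was 8.60, 8.90, 9.14 and 9.05. The 2 highest NN arrays were those of high background, NN 6 at 10.02 and NN 7 at 10.22, so that G-MDSC overlapped with NN. The rise from NN to G-MDSC was 0.82 (SE 0.31, adjusted p = 0.0484), but only 0.02 when arrays of high background alone were fitted. The call was also lost without any of NN 1 to NN 5 (0.72 to 0.82), without G-MDSC 2, 3 or 4 (0.61 to 0.85) and without TAN 1, 2 or 4 (0.82). TAN lay 1.22 below G-MDSC (SE 0.35, adjusted p = 0.00705), a difference of -0.10 with the background level as a block. The other Rab5a probe differed by -0.62 there and was not called (adjusted p = 0.0603), while it rose by 0.77 from NN to G-MDSC (adjusted p = 0.0191).

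Rab22a, which acts between early endosomes and recycling carriers, fell by 0.97 from NN to G-MDSC (SE 0.17, adjusted p = 0.000292). It had 8.08 lowest, 8.78 median and 8.94 highest in NN, and 7.90, 7.70, 7.44 and 7.68 in G-MDSC 1 to 4. TAN 1 to 4 had 8.88, 8.65, 8.35 and 8.48, inside the range of NN and above every G-MDSC. The lowest NN were NN 6 and NN 7 at 8.08 and 8.22, and within high background the difference between G-MDSC and NN was -0.47 and not called. Its other probe differed by -0.89 (adjusted p = 0.000867). TAN exceeded G-MDSC by 0.91 (SE 0.19, adjusted p = 0.000947), a difference of 0.20 that was not called with the background level as a block.

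Rab21, a Rab of integrin uptake, fell by 0.66 from NN to TAN (SE 0.14, adjusted p = 0.000617) with no overlap, from a mean of 9.52 ± 0.23 (SD, n = 7) to 8.86 ± 0.30 (SD, n = 4). TAN was also 0.82 below G-MDSC (SE 0.16, adjusted p = 0.000361), or 0.37 below and not called with the background level as a block. Rab31, which serves traffic from the Golgi to endosomes, had means of 13.25, 13.39 and 13.17 in NN, G-MDSC and TAN. No difference of Rab31 was called, and without G-MDSC 1 TAN was lower than G-MDSC by a called -0.30 (adjusted p = 0.0203). Rab20, which takes part in phagosome maturation in macrophages, was at or near background, with 4 of 7 NN, 4 of 4 G-MDSC and 1 of 4 TAN above it. Its values of 6.32, 6.42, 7.20 and 6.47 in TAN 1 to 4 set TAN 3 above all other arrays, and without TAN 3 the difference between TAN and G-MDSC was called at -0.32 (adjusted p = 0.00937), against -0.12 with it.

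Late endosome and lysosome Rabs went both ways in TAN. Of 12 genes, 4 were higher in TAN than in NN (Rab7b, Rab9, Rab34 and Rab39b) and 5 lower (Rab7, Rab12, Rab29, Rab32 and Rab38), or 33.3% and 41.7% against 36.8% and 26.2% of all genes. Between G-MDSC and NN, Rab7b and Rab24 were higher and Rab7 and Rab38 lower, or 16.7% each way against 18.3% and 19.7%. Rab7b, which acts between late endosomes and the Golgi and lowers Toll-like receptor signals in mouse macrophages, had 6.34 lowest, 6.49 median and 6.76 highest in NN, with 4 of 7 arrays above background. It was 7.02, 6.73, 6.80 and 7.00 in G-MDSC 1 to 4 and 8.57, 8.89, 8.28 and 8.83 in TAN 1 to 4. TAN lay clear above both other groups, and G-MDSC overlapped with NN only through G-MDSC 2. Rab7b rose by 2.10 from NN to TAN (SE 0.12, adjusted p = 6.31e-10) and TAN was 1.75 above G-MDSC (SE 0.14, adjusted p = 7.30e-08). The rise of 0.34 in G-MDSC (SE 0.12, adjusted p = 0.0387) was 0.19 within high background and not called, and the call was lost without NN 1, 3, 4 or 5 (0.31 to 0.34) or G-MDSC 1, 3 or 4 (0.30 to 0.37).

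Rab34 is a Golgi Rab that takes part in phagosome maturation in mouse macrophages. By the probe brightest over all arrays it was near background outside the tumor. NN ran from 6.32 to 6.68 with a median of 6.45, and G-MDSC 1 to 4 had 6.49, 6.37, 6.81 and 6.46. TAN 1 to 4 had 8.57, 8.34, 7.92 and 8.28, all above the other arrays. By its brightest probe Rab34 rose by 1.78 from NN to TAN (SE 0.12, adjusted p = 4.01e-09), and its difference between G-MDSC and NN was 0.03 (SE 0.12, adjusted p = 0.855). Of its other probes, the dimmest was below background in every NN and every G-MDSC. It was at least 1.70-fold higher in TAN than in NN (adjusted p = 1.08e-05). The middle probe was 9.14 in TAN 3 and 6.41 to 6.70 in the other TAN, with a difference of 0.33 from NN (adjusted p = 0.460). In NN and in G-MDSC its mean exceeded that of the chosen probe, and it was above background in 7 of 7 NN, against 3 of 7. The chosen probe was thus brightest only through TAN, and the size of the rise depends on that choice.

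Rab9 returns mannose 6-phosphate receptors from late endosomes to the Golgi. Its brightest probe had 7.54 lowest, 8.08 median and 8.35 highest in NN, 8.61, 8.44, 8.55 and 8.28 in G-MDSC 1 to 4, and 9.91, 10, 8.97 and 9.61 in TAN 1 to 4. TAN was above every other array, and it rose by 1.60 from NN (SE 0.18, adjusted p = 1.07e-06) and by 1.15 from G-MDSC (SE 0.20, adjusted p = 0.000174). The other Rab9 probe, with means near 7, fell by 0.41 from NN to TAN (adjusted p = 0.0145), so that the probes of Rab9 were called in opposite directions. In G-MDSC against NN the brightest probe differed by 0.45 (SE 0.18, adjusted p = 0.0605), called without NN 7 (0.50) or without TAN 3 (0.45, adjusted p = 0.0105).

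Rab7, the Rab of late endosomes and phagosomes that meet lysosomes, gave opposite calls by probe in G-MDSC. By its brightest probe NN ran from 13.31 to 13.59 with a median of 13.48, G-MDSC 1 to 4 had 12.76, 12.79, 12.79 and 13.00, and TAN 1 to 4 had 12.29, 12.29, 13.55 and 13.12. The fall was 0.62 in G-MDSC (SE 0.19, adjusted p = 0.0187) and 0.64 in TAN (SE 0.19, adjusted p = 0.00871), where TAN 3 lay inside the NN range. The other 2 probes of Rab7 rose in G-MDSC by 1.40 (adjusted p = 0.00126) and 1.10 (adjusted p = 0.00250), and differed in TAN by 0.10 and 0.21 with no call. With median scaling neither fall of the brightest probe was called (-0.24 in G-MDSC and -0.38 in TAN).

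Rab32 and Rab38 serve lysosome-related organelles such as melanosomes, and their NN means were 13.63 ± 0.23 and 7.26 ± 0.17 (SD, n = 7). Rab32 fell by 0.59 in TAN (SE 0.13, adjusted p = 0.00114), or 0.29 and not called with median scaling, and Rab38 fell by 0.48 in G-MDSC (adjusted p = 0.00125) and 0.32 in TAN (adjusted p = 0.0118). The other Rab38 probe differed by -0.18 in G-MDSC with no call (adjusted p = 0.180) and by -0.28 in TAN (adjusted p = 0.0228). Rab29, a partner of the kinase Lrrk2, fell by 0.38 in TAN (SE 0.11, adjusted p = 0.00592) and lay 0.50 below G-MDSC (SE 0.12, adjusted p = 0.00240), with no overlap in either. Rab12, also a substrate of Lrrk2, was below background in every TAN and at least 1.5-fold lower there than in NN (adjusted p = 0.00175). Rab24, a Rab linked to autophagy, rose by 0.42 in G-MDSC (SE 0.12, adjusted p = 0.00971) and lay at -0.42 in TAN against G-MDSC (adjusted p = 0.0117). Rab39b rose by 0.34 in TAN (adjusted p = 0.0301) through TAN 1 and TAN 2 at 7.30 and 7.19, while TAN 3 and TAN 4 at 6.62 and 6.59 lay inside the NN range of 6.47 to 6.69. That call was lost without NN 2, NN 7, TAN 1 or TAN 2 (0.22 to 0.33). Rab39 and Rab42 had means of 6.40 to 6.83 in every group and no call.

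Among 12 Rabs of recycling and traffic to the cell surface, 5 were higher and 5 lower in TAN than in NN, or 41.7% each way against 36.8% and 26.2% of all genes. Rab15, which acts in recycling of the transferrin receptor, had 8.10 lowest, 8.26 median and 8.56 highest in NN. It was 7.04, 6.73, 6.83 and 6.79 in G-MDSC 1 to 4 and 11.85, 11.90, 10.80 and 12.36 in TAN 1 to 4. The groups were fully apart, with G-MDSC lowest, NN between and TAN highest. Rab15 was the only Rab gene called lower in G-MDSC and higher in TAN (1.96%, against 2.86% of all genes). It fell by 1.43 from NN to G-MDSC (SE 0.20, adjusted p = 3.35e-05), rose by 3.45 from NN to TAN (SE 0.20, adjusted p = 6.46e-10) and lay 4.88 higher in TAN than in G-MDSC (SE 0.23, adjusted p = 2.23e-10). These Rab15 calls held under every alternative run.

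Rab11a, the Rab of the recycling endosome, fell in steps. NN had 8.21 lowest, 8.36 median and 8.73 highest, G-MDSC 1 to 4 had 7.40, 7.61, 7.65 and 7.75, and TAN 1 to 4 had 6.21, 6.55, 7.06 and 6.46, with only TAN 3 above background. It fell by 0.82 in G-MDSC (SE 0.15, adjusted p = 0.000375) and by 1.85 in TAN (SE 0.15, adjusted p = 2.48e-08). Its near relative Rab11b stood at 14.13 ± 0.09 in NN (SD, n = 7), and fell by 0.40 in TAN (adjusted p = 0.0138), or 0.24 and not called without TAN 3 (adjusted p = 0.0545). Of the other Rabs in this role, Rab4a, Rab8a, Rab13 and Rab14 were higher in TAN by 0.49 to 0.65, and Rab8b, Rab10 and Rab35 lower by values of -0.46 to -0.41. The other probes of Rab8b and Rab10 differed by 0.07 (adjusted p = 0.554) and -0.09 (adjusted p = 0.489) with no call. The other Rab8a probe fell by 0.53 (adjusted p = 0.0213). Rab4b, of fast recycling like Rab4a, was instead highest in G-MDSC, at 0.58 above NN (SE 0.12, adjusted p = 0.00113), and this was the only rise in G-MDSC called under every alternative run.

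Promoter windows from RefSeq (GRCm38.p6, 250 bases before to 50 after the start) matched 41 of the 51 Rab genes, with 53 windows. Those of Rab15, Rab34 and Rab39b are shown because they were the Rab genes with an AP-1 site, TGACTCA or its reverse complement TGAGTCA, which is in capitals below, and all 3 were called higher in TAN than in NN, as were 23.5% of Rab genes and 36.8% of all genes. The Rab39b call was lost without NN 2, NN 7, TAN 1 or TAN 2 (0.22 to 0.33). The site was in 1 of 4 Rab15 windows (chr12:76818325-76818624, minus strand, site beginning 245 bases before that window's start). It was also in 1 of 2 Rab34 windows (chr11:78188177-78188476, plus strand, 58 bases before) and in the single Rab39b window (chrX:75578182-75578481, minus strand, 3 bases before). This Rab15 window belongs to a start inside the gene, which spans chr12:76797960-76822759, and not to the gene's outermost start. AP-1 letters stood in 5.66% of Rab windows and in 5.20% of all 32851 windows. The E-box was in 11.3% of Rab windows (Rab5a, Rab20, Rab21, Rab23, Rab24 and Rab27a) against 7.15% of all, the PU.1 site in 1.89% (Rab32) against 3.20%, and the C/EBP palindrome in 0 of 53 against 0.183%. Of the E-box genes, Rab21, Rab23 and Rab27a were called lower in TAN than in NN, and Rab5a, Rab20 and Rab24 were not called. Rab32, with the PU.1 site, was called lower. For all genes with an AP-1 window the share called higher is not given here. A match of letters is a description of the window only, and a link of any motif to direction was not tested.
Rab15: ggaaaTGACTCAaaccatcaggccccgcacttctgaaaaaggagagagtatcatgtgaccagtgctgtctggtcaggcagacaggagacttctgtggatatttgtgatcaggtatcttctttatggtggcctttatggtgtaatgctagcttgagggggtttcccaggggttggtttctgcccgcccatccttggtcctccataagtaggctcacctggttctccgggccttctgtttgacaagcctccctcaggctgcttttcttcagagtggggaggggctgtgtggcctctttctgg
Rab34: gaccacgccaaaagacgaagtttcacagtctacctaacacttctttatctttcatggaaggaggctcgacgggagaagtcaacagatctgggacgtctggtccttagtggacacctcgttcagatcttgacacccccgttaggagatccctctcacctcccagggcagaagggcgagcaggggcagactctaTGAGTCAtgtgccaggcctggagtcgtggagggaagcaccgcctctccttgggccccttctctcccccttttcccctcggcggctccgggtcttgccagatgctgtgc
Rab39b: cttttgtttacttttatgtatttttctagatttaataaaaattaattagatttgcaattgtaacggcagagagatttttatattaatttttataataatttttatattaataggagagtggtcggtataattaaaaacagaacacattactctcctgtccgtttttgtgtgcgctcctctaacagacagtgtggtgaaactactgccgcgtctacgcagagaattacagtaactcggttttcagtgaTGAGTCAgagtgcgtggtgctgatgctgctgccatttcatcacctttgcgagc

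Of 11 Rabs of the endoplasmic reticulum and Golgi, 5 were lower in TAN than in NN and only Rab33a was higher, or 45.5% and 9.09% against 26.2% and 36.8% of all genes. Rab2a, which acts between the endoplasmic reticulum and the Golgi, was lower in both tumor-bearing populations. It ran from 12.33 to 12.72 in NN with a median of 12.51, was 10.88, 11.49, 11.36 and 11.48 in G-MDSC 1 to 4, and 11.60, 11.59, 10.97 and 11.54 in TAN 1 to 4. Every NN was above every other array, and G-MDSC and TAN overlapped. Rab2a fell by 1.22 in G-MDSC (SE 0.14, adjusted p = 3.37e-06) and by 1.10 in TAN (SE 0.14, adjusted p = 4.32e-06), and the difference between TAN and G-MDSC was 0.12 (SE 0.16, adjusted p = 0.516).

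Rab33b, a Golgi Rab that binds the autophagy protein Atg16l1, was highest in G-MDSC and lowest in TAN. NN ran from 10.20 to 10.77 with a median of 10.42, G-MDSC 1 to 4 had 10.77, 10.92, 10.92 and 10.89, and TAN 1 to 4 had 9.11, 9.21, 9.52 and 9.12. TAN was below all other arrays, and NN 7 was level with G-MDSC 1. Rab33b fell by 1.18 from NN to TAN (SE 0.12, adjusted p = 2.54e-07) and differed by -1.63 from G-MDSC (SE 0.13, adjusted p = 7.80e-08), while the rise of 0.46 in G-MDSC (adjusted p = 0.00530) was 0.22 and not called within high background. Rab33a, its close relative, moved the other way. It was below background in every NN and above it in every TAN, at least 1.91-fold higher in TAN (adjusted p = 3.79e-06).

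Rab18, a Rab of lipid droplets, fell by 1.05 from NN to TAN (SE 0.15, adjusted p = 1.40e-05), from 8.95 ± 0.12 (SD, n = 7) to 7.90 ± 0.40 (SD, n = 4), with no overlap. Rab6a, of traffic within the Golgi, fell by 1.55 by its brightest probe (SE 0.28, adjusted p = 0.000170), and TAN 3 at 8.05 was nearest to the NN range of 8.49 to 9.16. The other Rab6a probes differed by -0.44 with no call (adjusted p = 0.0937) and by -0.58 (adjusted p = 4.79e-05). Rab1b, which carries traffic from the endoplasmic reticulum to the Golgi, fell by 2.80 in TAN by its brightest probe (SE 0.49, adjusted p = 0.000127). That probe was also low in G-MDSC 1, at 7.02 against 10.10 to 10.73 in the other G-MDSC, and TAN lay at -2.29 against G-MDSC, or -3.14 without G-MDSC 1. Rab1a, with a nearly identical role, had means of 10, 10.21 and 9.96 and no call, and without G-MDSC 1 its difference of TAN from G-MDSC was called at -0.38 (adjusted p = 0.0424). Rab28, placed in no traffic step here and linked to cilia, fell by 1.07 in G-MDSC (SE 0.12, adjusted p = 2.38e-06) and by 1.56 in TAN (SE 0.12, adjusted p = 1.34e-08), and its other probe fell by 1.09 and 2.35.

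Probes of the same gene often parted in TAN, among Rab genes and among all genes. Of the 51 genes, 17 had several probes. Relative to the NN means, no Rab gene had probes more than 4-fold apart in any NN. Rab1b did in G-MDSC 1 and Rab7 in G-MDSC 2 and G-MDSC 3. Of the 17, there were 5 such Rab genes in TAN 1 (Rab1b, Rab6a, Rab9, Rab24 and Rab34), 4 in TAN 2, 1 in TAN 3 and 2 in TAN 4. Over 2956 genes with several probes the share was at most 0.0677% in NN, 1.32 to 2.47% in G-MDSC, and 22.6%, 22%, 5.48% and 17.5% in TAN 1 to 4.

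The probes of Rab24 are an example. The 2 brighter ones differed by 0.00 and -0.11 between TAN and NN, while the dimmest, at 10.10 to 10.75 in NN, was 7.10, 6.84, 9.98 and 6.74 in TAN 1 to 4, a fall of 2.69 (adjusted p = 0.000112). TAN 3 stayed close to NN and the other TAN did not. Probes were called in opposite directions for Rab7 in G-MDSC against NN, for Rab1b, Rab8a and Rab9 in TAN against NN, and for Rab1b and Rab9 in TAN against G-MDSC. These are 1, 3 and 2 of 17 Rab genes, and the share over all genes with several probes is not given here. For Rab1b the other probes differed in TAN by -1.12 (adjusted p = 8.63e-06) and 0.39 (adjusted p = 0.00639), and for Rab8a the brightest probe rose by 0.49 while the other fell by 0.53 (adjusted p = 0.0213). Which transcripts these probes detect was not tested, and a gene whose probes disagree has no settled direction here.

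**Figure D3:**
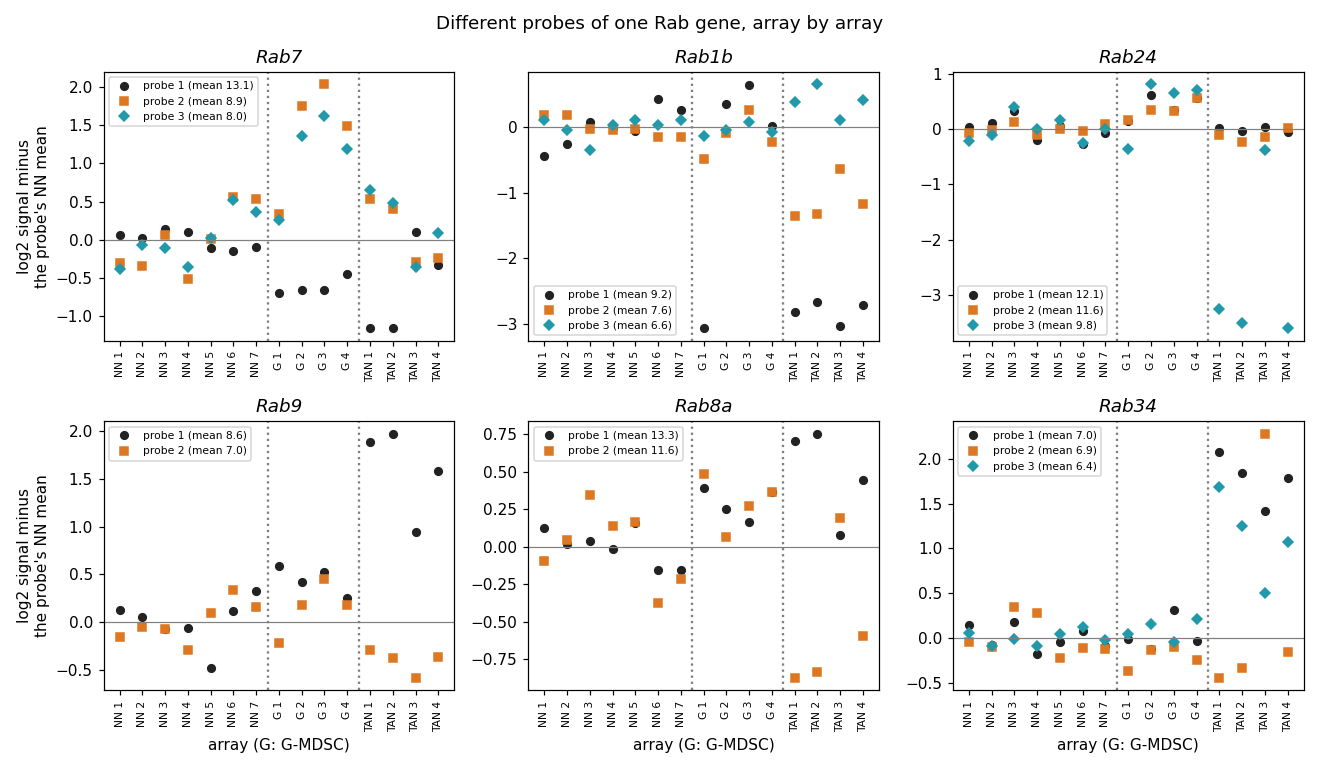
Log2 signal of each probe minus that probe's own NN mean, in every array, for 6 Rab genes whose probes parted in G-MDSC or TAN, with dotted lines between the groups. The dimmest Rab24 probe drops in TAN 1, TAN 2 and TAN 4 but not in TAN 3, and Rab7 probes part in G-MDSC.

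Genes that act with or on Rabs are given next, from lists drawn up by role. In TAN against NN, 36.8% of all genes were higher and 26.2% lower, and in G-MDSC against NN 18.3% were higher and 19.7% lower, and the shares of each list are set against these without a test. Of 19 measured genes of granule docking and fusion, 7 were higher and 8 lower in TAN than in NN (36.8% and 42.1%), and 3 and 7 in G-MDSC (15.8% and 36.8%). Sytl1, an effector that ties Rab27a to granule docking, fell with the same order of groups as Rab3d, by 1.67 in G-MDSC (SE 0.23, adjusted p = 2.97e-05) and fell by 3.25 in TAN (SE 0.23, adjusted p = 6.52e-09). Its NN lay between 10.94 and 11.54 and its G-MDSC between 9.52 and 9.77, with 8.71, 8.40, 6.98 and 8.07 in TAN 1 to 4, so that the groups were apart and TAN 3 was lowest. Sytl4, also a Rab27 effector, was below background in every G-MDSC and every TAN, at least 1.93-fold and 1.90-fold lower than in NN. Among SNARE proteins, which fuse membranes, Vamp3 fell by 2.02 in TAN (adjusted p = 5.03e-11) and Stx7 lay at -1.13 in TAN against G-MDSC. Stx3 rose by 1.48 in TAN (adjusted p = 1.35e-08) and by 1.09 in G-MDSC. Vamp2 and Snap23 rose by 1.26 and 1.11 in G-MDSC and by 1.06 and 1.05 in TAN, where TAN 3 had a Vamp2 value of only 8.28. Unc13b, a priming factor, rose by 1.5 in TAN (adjusted p = 1.30e-09).

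Of 24 measured effectors of endosomes and phagosomes, 13 were higher and 6 lower in TAN than in NN (54.2% and 25%), and 7 and 5 in G-MDSC (29.2% and 20.8%), against 36.8% and 26.2%, and 18.3% and 19.7%, of all genes. Lrrk2, the kinase that phosphorylates several Rabs, fell by 1.44 in G-MDSC (SE 0.20, adjusted p = 2.58e-05) and fell by 4.32 in TAN (SE 0.20, adjusted p = 3.61e-11). Its lowest NN was 10.86, its G-MDSC were 9.29, 10.05, 9.90 and 10.24, and its TAN were 6.81, 6.74, 7.44 and 6.95. These groups did not overlap. Rab11fip5, a Rab11 effector, rose by 1.14 in G-MDSC and 2.0 in TAN (adjusted p = 6.81e-10), against the falls of Rab11a. Ehd4 and Vps11 rose by 2.30 and 1.27 in TAN and by 0.82 and 0.35 in G-MDSC. The Rab5 effector Rabep2 rose by 1.22 in G-MDSC and by 0.80 in TAN. The Rab7 effector Plekhm1 fell by 0.85 in G-MDSC and by 0.86 in TAN. Rilp, another Rab7 effector, and Vps45 were 1.21 and 1.33 higher in TAN than in G-MDSC.

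Of 30 measured exchange factors, 6 were higher and 13 lower in TAN than in NN (20% and 43.3%, against 36.8% and 26.2% of all genes), and 1 and 7 in G-MDSC (3.33% and 23.3%, against 18.3% and 19.7%). Rabgef1, an exchange factor of Rab5, rose by 3.03 in TAN (SE 0.18, adjusted p = 5.74e-10), from 10.34 to 10.63 in NN to 13.88, 13.86, 12.94 and 13.62 in TAN 1 to 4, with no overlap. Rin1, also acting on Rab5, was below background in every NN and at least 2.94-fold higher in TAN. Rabif fell by 2.15 and Dennd5a by 1.55 in TAN. In G-MDSC, Rin2 fell by 1.80, Gapvd1 by 1.33, Dennd2c by 1.25 and Dennd2a by 1.03, with adjusted p at or below 2.16e-06 for each. Rin2, Gapvd1 and Dennd2c also fell in TAN, by 0.93, 1.04 and 0.30, while Dennd2a at -0.09 was not called there.

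Of 26 measured GTPase-activating proteins, 12 were higher and 8 lower in TAN than in NN (46.2% and 30.8%, against 36.8% and 26.2% of all genes), and 5 and 9 in G-MDSC (19.2% and 34.6%, against 18.3% and 19.7%). Tbc1d20, which acts on Rab1, fell by 2.25 in TAN (adjusted p = 5.06e-06), and Tbc1d10c and Tbc1d8 fell by 1.85 and 1.72, while Tbc1d7 rose by 1.73 (adjusted p = 9.33e-08). In G-MDSC, Tbc1d14 and Tbc1d15 rose by 1.40 and 1.39, and Tbc1d8 and Tbc1d2 fell by 1.32 and 1.07. Without TAN 3, the TAN mean lay above NN by 0.99 for Tbc1d14, 1.27 for Tbc1d15 and 0.002 for Tbc1d2. Between TAN and G-MDSC, Tbc1d1 was 1.60 higher in TAN.

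Of 9 measured genes of lipid attachment and of the GDP dissociation inhibitor cycle, 3 were higher and 2 lower in TAN than in NN (33.3% and 22.2%, against 36.8% and 26.2% of all genes), and 1 and 2 in G-MDSC (11.1% and 22.2%, against 18.3% and 19.7%). Rabggtb and Rabggta, the subunits of the transferase that attaches the lipid tail to Rabs, rose by 1.35 (adjusted p = 6.31e-08) and 1.02 (adjusted p = 0.000302) in TAN. In G-MDSC, Rabggtb and Yipf4 fell by 0.47 (adjusted p = 0.00474) and 0.49, and Yipf1 rose by 0.76. Without TAN 3, the TAN mean of Yipf1 lay 0.57 above NN. Rabac1, which helps Rabs leave the inhibitor, differed by -3.98 between TAN and NN (SE 0.76, adjusted p = 0.000260). Its values of 7.97, 7.86, 13.51 and 8.70 in TAN 1 to 4 set TAN 3 inside the NN range of 13.03 to 13.89, and without TAN 3 the difference was -5.32. Yipf4 fell by 1.33 in TAN (adjusted p = 4.42e-09).

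**Figure D4:**
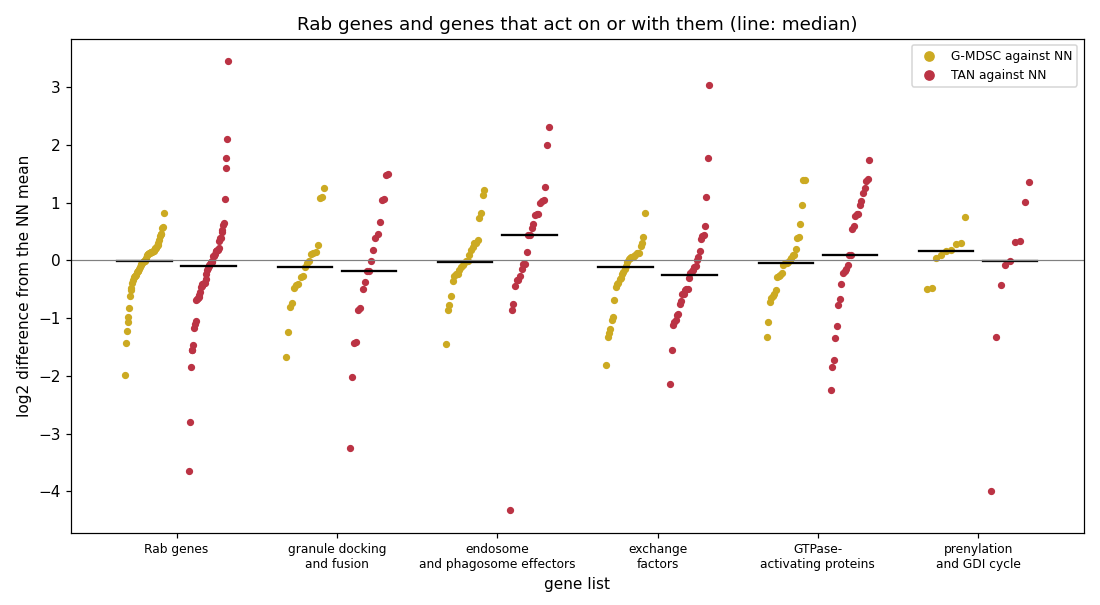
Log2 difference from the NN mean of every measured gene in 6 lists, for G-MDSC (yellow) and TAN (red), with a point per gene and a line at each list's median. Every list spreads to both sides of 0, and the lowest points in TAN are Lrrk2 at -4.32 among effectors and Rabac1 at -3.98 in the GDI cycle.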

How the data were processed

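RNA of 15 samples was measured on Illumina MouseRef-8 arrays of 25697 probes. The array files hold raw intensity values that the authors exported from BeadStudio, neither background subtracted nor normalized. The authors' value table of 16322 probes holds their normalized intensity values, and 9375 probes are absent from it. Signals were background corrected with limma 3.58.1 (R 4.3.3; normexp, offset 50), quantile normalized and taken to log2. Background was set in each array at percentile 95 of the signals of those 9375 probes. The 16316 probes with a ratio of at least 1.2 between some pair of arrays were fitted over all 15 arrays with a term per group (lmFit, eBayes), with Benjamini-Hochberg adjustment over all of them, and called under 0.05. All p-values are from limma, two-sided, and measure the spread between pooled samples. A gene was named from GEO's platform annotation (995 kept probes had no symbol) and represented by the probe of highest mean signal. Where a gene was below background in every array of a group, the fold is a lower bound, from the other group's mean and the lowest signal above background. The precision is limited by the number of arrays.

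Rab genes named with values are those that differed at least 2-fold in a comparison, those of granule release, early endosome and late endosome roles, and those whose probes disagree. A few others (among them Rab1a, Rab4b and Rab11b) were named after their values were seen. From partner lists up to 4 called genes with the largest difference per comparison were named. The members and lists were chosen with earlier results of these data known. Alternatives changed the background correction, the scaling, the source of values, the probe filters, the choice of probe, the background level as a block or within a level (threshold 100), the replicate number as a block, array weights, single arrays and a 2-fold limit.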

Additional observations from a re-analysis of the deposited data

Results flagged for a closer look

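In 8 of 99 groups of arrays tested for the named Rab genes, the highest or lowest array lay far from the rest of its group by Dixon's test. Chance gives about 1 in 20. All values are log2 signals. Rab1b was 7.02 in G-MDSC 1, against 10.10 to 10.73 in the other G-MDSC. Rab32 was 13.46 in the same array, against 13.80 to 13.86. TAN 3 was the outlying array for 3 genes, with Rab2a at 10.97 against 11.54 to 11.60, Rab3a at 7.06 against 7.54 to 7.60, and Rab20 at 7.20 against 6.32 to 6.47 in the other TAN. Rab7 was 13.00 in G-MDSC 4, against 12.76 to 12.79. Among NN, Rab15 was 8.56 in NN 1, against 8.10 to 8.27, and Rab29 was 9.90 in NN 7, against 10.08 to 10.14.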

How the results depend on the processing

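Over 99 pairs of a named Rab gene and a comparison, 2502 values were recomputed. Of these, 2388 kept direction and call, 78 lost the call, 32 gained it and 4 reversed. The reversed values were those of Rab5c in G-MDSC against NN with median scaling (0.01) and, with TAN 3 as the only TAN, of Rab7 in TAN against NN (0.10) and against G-MDSC (0.72), and of Rab20 in TAN against G-MDSC (0.48). With TAN 3 alone the count of called Rab genes was 21 against NN and 19 against G-MDSC, where the lone array is assumed to vary like the other groups. In G-MDSC against NN, array weights gave 31 (17 higher, 14 lower) and leaving out TAN 3 and G-MDSC 1 gave 23. In TAN against G-MDSC the background level as a block gave 16. Requiring 2-fold gave 4 in G-MDSC against NN, 14 in TAN against NN and 11 in TAN against G-MDSC, fewer by construction. The cause of the other changes was not tested, and the shares of all genes called under those settings are not given here.

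Leaving out each array in turn gave 13 to 20, 31 to 33 and 27 to 35 called Rab genes in the same order. Deviations of same-numbered samples from their group means had correlations of -0.309 to 0.266. Samples of unlike number were not compared, so that this check cannot decide whether numbers pair samples. The replicate block gave 15, 32 and 29. Under every alternative run for single genes, by the brightest probe, 1 of 6 rises and 6 of 9 falls were called in G-MDSC against NN, 5 of 12 and 11 of 21 in TAN against NN (among them Rab9 and Rab1b, with another probe called the opposite way), and 4 of 11 and 5 of 20 in TAN against G-MDSC. Dim genes such as Rab20, Rab27b, Rab30 and Rab42 lie near background, where small differences could not be measured.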
